A study of Coprinopsis cinerea with 7 samples.

Results

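Coprinopsis cinerea is an ink cap mushroom and a laboratory model of the basidiomycete fungi. Its DNA carries 5-methylcytosine, a modified base that dioxygenases of the TET/JBP family oxidise to 5-hydroxymethylcytosine and further products. Mushroom genomes hold an expanded set of these enzymes. In CMS-seq, bisulfite converts 5-hydroxymethylcytosine into cytosine-5-methylenesulfonate (CMS), and fragments carrying CMS are pulled down with an antiserum and sequenced next to input DNA. Most windows that stood out against input in these tables lay in long runs or close to other such windows. The sites described here are the exceptions: short stretches of 300 to 900 bp that stood alone. No other stretch enriched in both deposited tables lay within 3.0 kb on either side, as far as the sequence reached.

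All material came from oidia, the asexual spores, and every group carried the same labels for stage and DNA extraction (a plant DNA kit and a TruSeq library kit). The labels name no strain, genotype or treatment. The anti-CMS immunoprecipitation (IP) group holds 5 libraries, of which 3 belong to 1 biological replicate and 2 to the other, and the input group holds 1 per biological replicate. Each deposited table has a pair of columns per group, with the tags 1_1 and B_1. Hence n = 2 per group throughout, and any test measures only the spread between these columns. One table, called primary here, sums to 106176723 and 67181684 window counts in IP against 36059418 and 36233140 in input. The other has a name that refers to multiple mapping. It is called the multi-mapped table below and sums to 24990768 and 19994333 in IP against 28735765 and 27600179 in input.

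The genome was cut into 120537 windows of 300 bp (36.2 Mb on 13 chromosomes and 54 supercontigs). For each window and table the enrichment E was the log2 of mean IP over mean input, in CPM (window counts scaled to their column's total) with 0.1 CPM added to both, minus the median of all windows. A window passed where E was at least 0.4 (1.32-fold over the genome median) in both tables. An isolated site was a run of 1 to 3 consecutive passing windows with no other passing window within 10 windows on either side. This rule found 464 sites in 705 windows, out of 2280 runs in 6388 passing windows, so 20.4% of runs were isolated. Of the remaining runs, 1287 were as short but had a neighbour, and 529 were longer than 3 windows. The sites were thus selected on their IP and input values, so the enrichment given below is a description and no test of it is offered.

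The sites were small, and most were shallow. A single window made up 266 sites (57.3%), a pair of windows 155 (33.4%) and 3 windows 43 (9.27%). The highest window of a site was the one where the lower of its 2 E values was largest. Another window of the same site can thus be higher in 1 of the tables. At the highest window of each site, E in the primary table had a lowest value of 0.40, a median of 0.71 (1.63-fold) and a highest value of 4.57 (23.7-fold). For the multi-mapped table the median was 0.50 (1.42-fold) and the highest value 1.5 (2.83-fold). E of at least 1, a 2-fold enrichment, was reached by 134 sites (28.9%) in the primary table and by 24 (5.17%) in the multi-mapped table, and 23 sites reached it in both. Longer sites were also taller: median E in the primary table was 0.62, 0.96 and 1.23 for sites of 1, 2 and 3 windows, and 0.45, 0.61 and 0.83 in the multi-mapped table. Length and height both come from the values that the rule used, and a longer run offers more windows to pick from. A rise with length is thus in part built in, here and for runs over 3 windows. Isolated sites stood lower than runs over 3 windows, whose median E was 1.43 and 0.78 in the primary and multi-mapped tables, and close to short runs with neighbours, at 0.65 and 0.46.

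At a typical site the IP counts far exceeded the input counts only in the primary table, whose IP columns are also the deepest. The median count at the highest window in the primary table was 994 and 755 in the IP columns, against 214 and 218 in the inputs, and the median level was 9.37 and 11.2 CPM in IP against 5.92 and 6.03 CPM in input. The multi-mapped medians were 230 and 204 counts in IP against 195 and 190 in input. IP counts per site were thus several-fold lower in the multi-mapped table, while input counts were alike. At the low end, 12 sites had under 20 summed input counts in the primary table.

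Of the 461 sites that could be tested in the primary table, 374 (81.1%) had their highest window called higher in IP by edgeR's quasi-likelihood test at a Benjamini-Hochberg adjusted p under 0.05, beside 8.76% of all windows tested. The multi-mapped test called 418 of 464 (90.1%), beside 7.00% of all windows, and 360 were called in both tables, beside 5.63%. The authors' deposited table held 212 of the sites among its windows higher in IP (3.26% of all windows), and for multiple mapping it held 135 (3.21%). Both IP columns lay above both input columns at 452 sites in the primary table, beside 14.4% of all windows, and at 461 in the multi-mapped table, beside 17.4%. Since the same contrast chose the sites, nothing is read from these shares. The columns overlapped in at least 1 table at 14 sites, of which 12 were single windows, and their highest E in the primary table was 0.59. A further view of the weak end is given by the 32 sites called in neither table, of which 27 were single windows.

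The threshold cut through a continuous range of values. Just inside it, the window on chromosome 9 at 2269201 to 2269500 had an E of 0.42 and 0.4004 in the primary and multi-mapped tables. Just outside, the run on chromosome 9 at 2031301 to 2031900 had 0.56 and 0.3999. Membership near this line depended on small differences. With 1 column left out at a time, between 49.4% (without IP B_1) and 73.3% (without input B_1) of the sites were found again, and they made up 44.8% and 60.4% of the sites found that way. With a threshold of 0.5 in place of 0.4, 47.6% were found again, and they made up 46.9% of the sites at that threshold.

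The 12 sites ranked highest by the lower of their 2 E values each spanned 2 or 3 windows, and 10 of them had the midpoint of their highest window outside any gene. Their E ran between 1.94 and 3.86 in the primary table and between 1.13 and 1.5 in the multi-mapped table. Both IP columns lay above both inputs at all 12 sites and in both tables, beside 12.3% of all windows. The ranking used the same values, so nothing is read from this. Gene positions were those of the RefSeq table of assembly CC3, which lists gene types and locus tags without products, so no role is given for these genes.

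The highest-ranked site lay on chromosome 10 at 1044301 to 1045200 and touched the genes CC1G_09102 and CC1G_09103. Its highest window held 97.3 and 148 CPM in the IP columns against 10.2 and 12 CPM in the inputs of the primary table (123 ± 36.2 against 11.1 ± 1.27; SD, n = 2 each). There were 22.6 and 26.2 CPM in IP against 8.98 and 9.46 in input in the multi-mapped table, and E was 3.61 and 1.5 in the primary and multi-mapped tables. The edges of this site were steep. In the primary table E was 0.58 in the window to the left of the highest one, 3.38 in the window to the right and 0.50 in the one after that.

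The site with rank 3, on chromosome 1 at 3138001 to 3138900, also touched a pair of genes, CC1G_00522 and CC1G_00523. It held 56.9 and 88.9 CPM in IP against 7.76 and 6.98 CPM in input in the primary table, and 14.1 and 17.8 against 6.96 and 6.34 in the multi-mapped table. E was 3.44 and 1.36 in the 2 tables. Sites that touched 2 or more genes numbered 23 in all, and their median E was 0.82 and 0.66 in the primary and multi-mapped tables. A longer run can reach more genes, and E rises with length in part by the rule, so nothing is read from this.

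No gene was touched by 6 of the 12. The highest of these in the primary table lay on chromosome 5 at 2706901 to 2707800, 108 bp from CC1G_08170, with 68.6 and 94.2 CPM in IP against 6.41 and 5.85 in input (E of 3.86), and 9.60 and 11.6 against 5.43 and 4.49 in the multi-mapped table (E of 1.19). The site on chromosome 6 at 1312501 to 1313400 ended 5 bp from CC1G_09539 and held 9.40 and 11.1 CPM in IP against 2.61 and 1.79 in input in the primary table. The site on chromosome 5 at 2030401 to 2031000 lay farther out, 2001 bp from CC1G_01266, and held 9.03 and 13.3 CPM in IP against 2.80 and 3.51 in input. At their highest windows, both of these had IP columns well above the inputs. Their inputs were low beside the medians over all isolated sites, 5.92 and 6.03 CPM. Their IP levels were nearer to the medians of 9.37 and 11.2 CPM. The chromosome 6 site was deeper in the window to the left of its highest one. That window held 3443 and 2967 counts in IP against 224 and 217 in input in the primary table (E of 2.78).

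At their highest windows, the remaining sites among the 12 had E between 1.99 and 2.73 in the primary table. On chromosome 10 the run at 322801 to 323700 touched CC1G_01568 and had an E of 2.16 and 1.39 in the primary and multi-mapped tables. On chromosome 3 the run at 2280301 to 2281200 touched CC1G_06821, with 2.69 and 1.34. Chromosome 9 held a run at 296401 to 297000 that touched CC1G_09374, with 1.99 and 1.29, and another at 2318401 to 2319000, 171 bp from CC1G_13357, with 2.45 and 1.14. The run on chromosome 12 at 1073101 to 1074000, 114 bp from CC1G_11479, had 2.57 and 1.21. At the highest windows of these 5 sites the order of E differed between the tables. The chromosome 10 run was highest in the multi-mapped and the chromosome 3 run in the primary table. Another window of the chromosome 12 run, to the left of its highest one, reached an E of 2.96 in the primary table. On chromosome 13 the run at 610501 to 611400, 215 bp from CC1G_04724, was unlike the others in coverage. It held 2.53 and 4.06 CPM in IP against 0.666 and 0.773 in input in the primary table, and 13.4 and 16.1 against 7.10 and 7.28 in the multi-mapped table (E of 2.2 and 1.13).

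**Figure D1:**
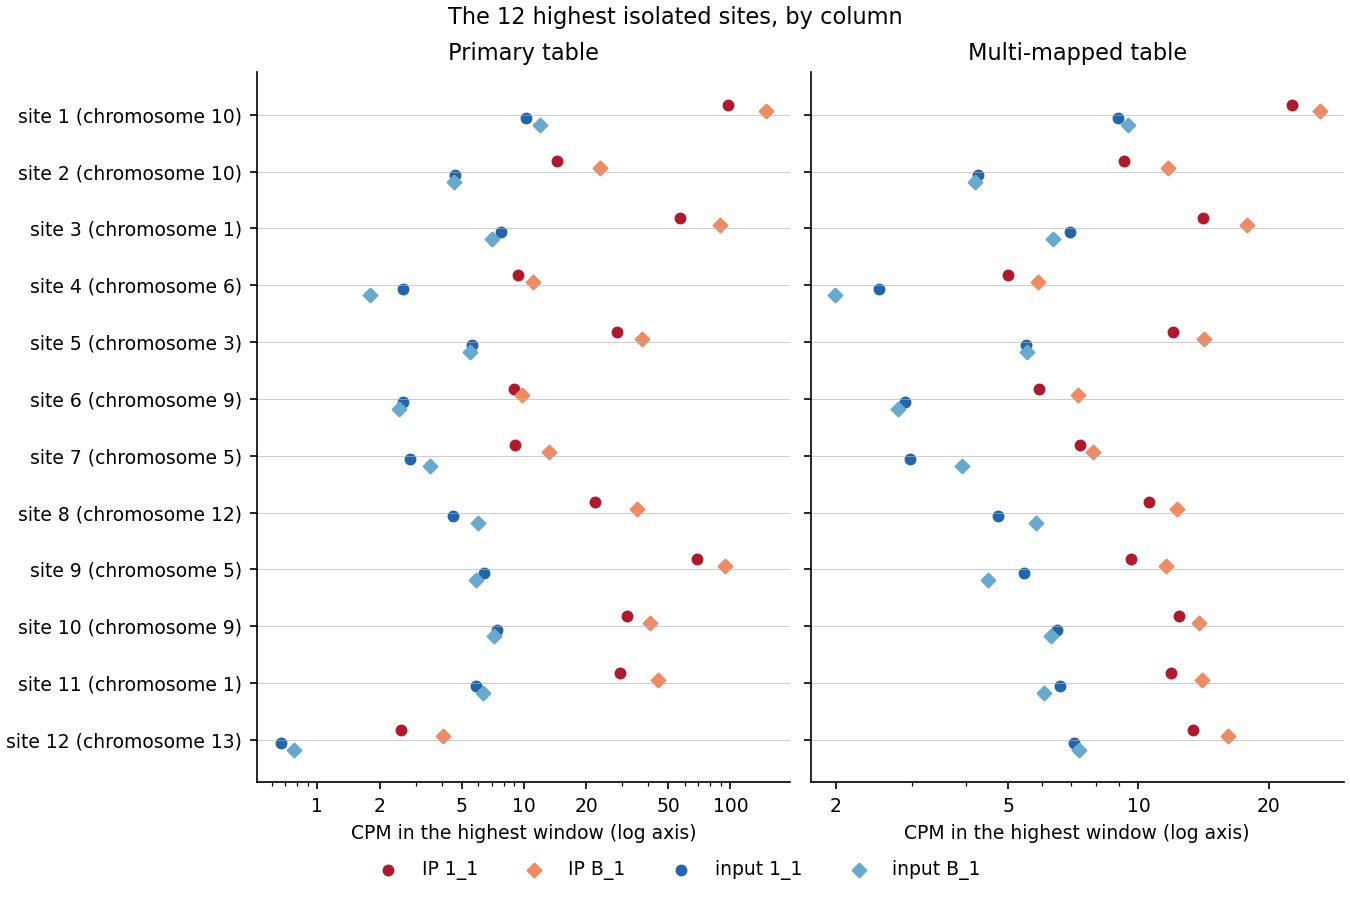
Level (CPM, log axis) in the highest window of the 12 highest-ranked isolated sites, by column, in the primary table (left) and the multi-mapped table (right). Red circles and orange diamonds are IP 1_1 and IP B_1, dark and light blue are input 1_1 and input B_1. At every site both IP points lie right of both input points in both tables, beside 12.3% of all windows. IP B_1 lies right of IP 1_1 at each site. The chromosome 13 site is far lower in the primary than in the multi-mapped table.

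By the same ranking, the next sites inside genes were a single window on chromosome 7 at 2063101 to 2063400 in CC1G_14876 (E of 1.4 and 1.1 in the primary and multi-mapped tables), a run on chromosome 8 at 2040301 to 2041200 in CC1G_12262 (2.37 and 1.09) and one on chromosome 4 at 480601 to 481200 in CC1G_14326 (3.27 and 1.04). The next outside genes were on chromosome 8 at 1459801 to 1460400, 181 bp from CC1G_02981 (1.78 and 1.1), on chromosome 1 at 853201 to 854100, 2887 bp from CC1G_04402 (2.90 and 1.07), and on chromosome 6 at 1939501 to 1940100, touching CC1G_07225 (1.34 and 1.05). The CC1G_14326 site held 42.1 and 70.8 CPM in IP against 5.57 and 7.23 in input in the primary table. Tall isolated sites thus occurred both within gene bodies and between genes.

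Around the highest window, enrichment dropped to near the genome median within 2 windows. Over all isolated sites the median E in the primary table was 0.10 and 0.11 at 2 windows to the left and right, 0.42 and 0.43 at 1 window, and 0.71 at the highest window. The multi-mapped medians were 0.11 and 0.10 at 2 windows, 0.33 and 0.33 at 1 window, and 0.50 at the highest window. At 5 windows, 1.5 kb away, the medians were 0.04 and 0.05 in the primary table, against 0.44 and 0.40 for runs over 3 windows. Low flanks follow in part from the rule, which asked for 10 windows without a passing neighbour. Passing meant both tables, so flanks past the threshold in 1 table were allowed. At 5 windows to the left and right, E was at least 0.4 in 12.4% and 9.69% of windows in the primary table. The multi-mapped shares were 1.99% and 1.32%.

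**Figure D2:**
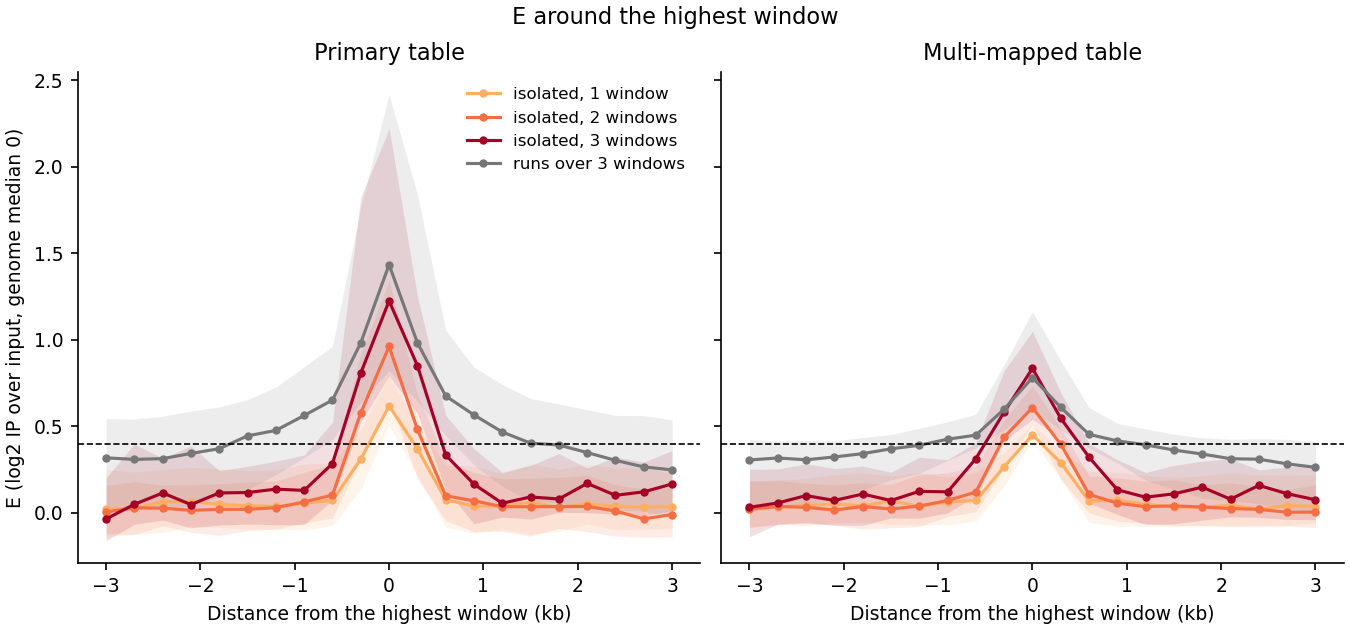
Median E (log2, genome median 0) by distance from the highest window in kb, in the primary (left) and multi-mapped (right) tables, for isolated sites of 1, 2 and 3 windows and for runs over 3 windows. Shading spans the quartiles and the dashed line marks the threshold of 0.4. Isolated sites lie below 0.2 from 0.9 kb outward, while runs over 3 windows remain near 0.4 at 1.5 kb.

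The sites were set apart by distances well beyond the required gap. The nearest other passing window was a median of 11.1 kb (37 windows) away. It was more than 100 windows away at 88 sites (19.0%) and at the smallest distance the rule allows, 11 windows, at 27 sites. The loneliest site with passing windows on both sides was a single window on chromosome 1 at 2647201 to 2647500 in CC1G_01827, 267 kb from the nearest other passing window, with an E of 1.06 and 0.72 in the primary and multi-mapped tables. Neighbouring isolated sites were a median of 23.2 kb apart. The isolation of 24 sites was not fully tested, because fewer than 10 windows of sequence lay on a side.

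Isolated sites were found on all 13 chromosomes, at 12.8 per Mb over the whole assembly. Density was 19.3 per Mb on chromosome 6 (39 sites), 16.2 on chromosome 12 (34 sites) and between 10.1 and 14.1 on the other chromosomes except 13, where 5 sites gave 5.09 per Mb. On chromosome 13 also the smallest share of runs was isolated, 6.67% of 75, against 32.6% of 95 on chromosome 8. The 54 supercontigs held 22 sites in 0.348 Mb, or 63.2 per Mb, but 20 of these 22 sites had fewer than 10 windows of sequence on a side. Median E per chromosome lay between 0.65 and 0.90 in the primary table and between 0.44 and 0.59 in the multi-mapped table.

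Relative to genes, 442 sites on chromosomes could be placed. The midpoint of the highest window was outside genes at 250 (56.6%, exact 95% interval 51.8 to 61.2%), against 65.6% of short runs with neighbours, 70.2% of runs over 3 windows and 34.7% of all windows. Sites outside genes were a median of 377 bp from the nearest gene, against 1400 bp for short runs with neighbours, 716 bp for runs over 3 windows and 336 bp for all windows outside genes. Sites inside genes were a median of 311 bp from the gene's edge, against 484 bp for all windows inside genes. A midpoint within 300 bp of a gene edge, on either side of it, was found at 200 sites (45.2%, interval 40.5 to 50%), against 28.2% of short runs with neighbours, 31.8% of runs over 3 windows and 37.7% of all windows. This share was the highest of the 4 sets; the differences were not tested. Which end of the gene was near was not analysed here, since the table gives no strand. Neighbouring sites and windows are not independent of each other, and the intervals cover counting error only.

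The share outside genes went with the length of the site: it was 49.2% for sites of 1 window and 77.5% for those of 3 windows. Height differed little by place. Sites inside genes had a median E of 0.71 and 0.48 in the primary and multi-mapped tables, and those outside 0.70 and 0.52. In all, 164 sites (37.1%) did not touch a gene with any base, and 302 of the 13497 genes on chromosomes (2.24%) were touched. No gene was touched by 2 sites. Protein-coding genes made up 289 of those touched, 2.18% of their 13230.

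**Figure D3:**
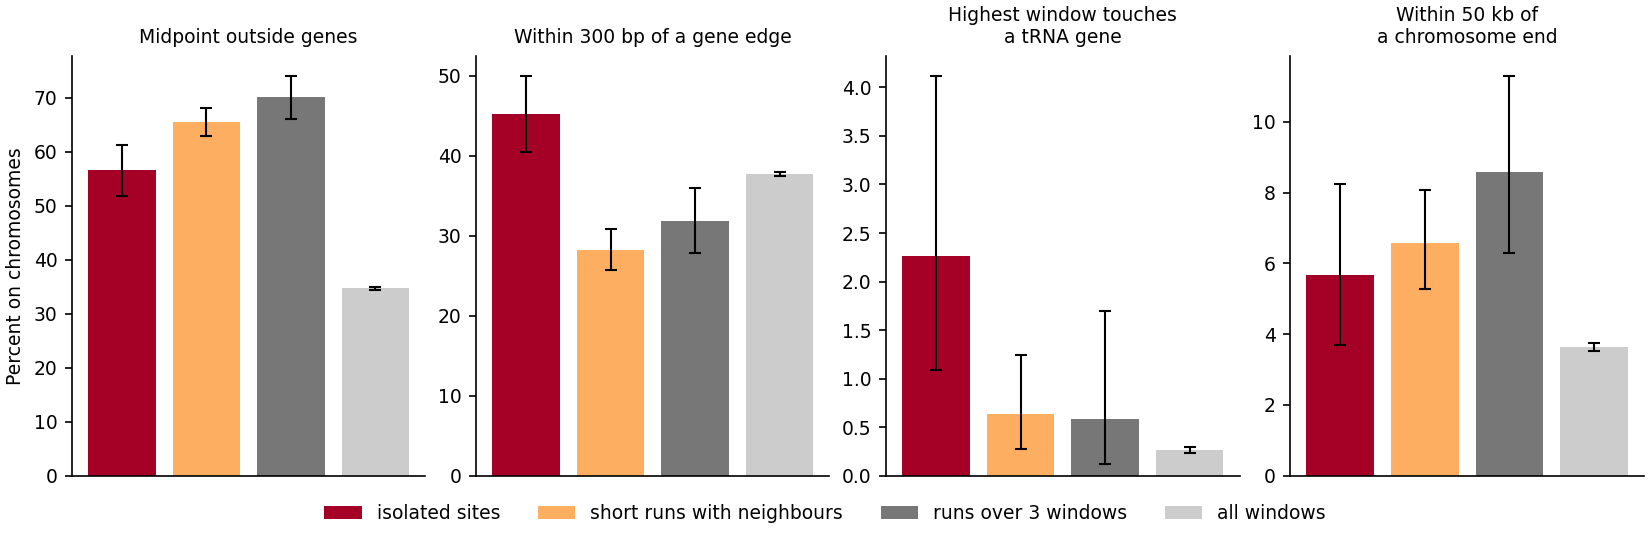
Percent of isolated sites, short runs with neighbours, runs over 3 windows and all windows, on chromosomes, whose highest window has its midpoint outside genes, lies within 300 bp of a gene edge, touches a tRNA gene, or lies within 50 kb of a chromosome end. Bars start at 0 and whiskers are exact 95% intervals for counting error. Isolated sites stand at 56.6%, 45.2%, 2.26% and 5.66%, against 34.7%, 37.7%, 0.263% and 3.64% of all windows.

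Genes for tRNA, the adaptors that bring amino acids to the ribosome, are short genes read by RNA polymerase III from promoter elements within the gene. Isolated sites touched 13 of the 255 tRNA genes on chromosomes (5.10%, exact 95% interval 2.74 to 8.56%), against 2.18% of protein-coding genes (1.94 to 2.45%). Touching tRNA genes was not particular to them: runs over 3 windows touched 14 of the 255, and 443 of the 13230 protein-coding genes. The median length in the gene table was 85 bp for tRNA genes and 1482 bp for protein-coding genes, so a tRNA gene offers a site less sequence to touch. The highest window itself touched a tRNA gene at 10 of 442 sites (2.26%, 1.09 to 4.12%), against 0.633% of short runs with neighbours, 0.585% of runs over 3 windows and 0.263% of all windows. Counted over whole runs the shares were 2.94% of isolated sites, 0.871% of short runs with neighbours and 2.34% of runs over 3 windows, which cover more windows each.

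The 13 tRNA sites had a median E of 1.03 and 0.63 in the primary and multi-mapped tables, against 0.70 and 0.50 for the other 451 isolated sites, and 11 of the 13 were called higher in both tables, beside 77.6% of all isolated sites and 5.63% of all windows. The tallest, on chromosome 1 at 2914501 to 2915100 over CC1G_20011, held 29.2 and 44.5 CPM in IP against 5.85 and 6.32 in input in the primary table (36.8 ± 10.8 against 6.09 ± 0.331; SD, n = 2 each). In the multi-mapped table it held 11.9 and 14 CPM in IP against 6.58 and 6.05 in input, with an E of 2.73 and 1.13 in the 2 tables. No other tRNA site came near this height in the primary table. There its E was back to 0.11 one window to the left and 0.26 in the second window to the right. The left window held only 102 and 54 counts in IP against 41 and 25 in input. In the multi-mapped table E was 0.26 and 0.13 in the same windows.

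At 10 of the 13 sites the highest window itself touched the tRNA gene. The tRNA genes CC1G_20169, CC1G_20019 and CC1G_20193 lay in the other window of their sites, so the values given for these 3 are of a window beside the gene. Next by E at the highest window came the CC1G_20169 site on chromosome 8 (E of 1.61 and 0.86 in the primary and multi-mapped tables), CC1G_20061 on chromosome 3 (1.29 and 0.84) and CC1G_20152 on chromosome 7 (1.26 and 0.75). The other window of the CC1G_20152 site had an E of 1.43 in the primary table. The CC1G_20061 site was a single window, 2268301 to 2268600, with 6.39 and 7.84 CPM in IP against 3.05 and 3.31 in input in the primary table. CC1G_20170 on chromosome 8 (1.08 and 0.67), CC1G_20019 on chromosome 2 (1.08 and 0.69) and CC1G_20002 on chromosome 1 (1.03 and 0.60) also reached 2-fold in the primary table. The CC1G_20152, CC1G_20170, CC1G_20019 and CC1G_20032 sites touched neighbouring protein-coding genes as well. Lower values were seen at CC1G_20032 on chromosome 2 (0.82 and 0.62), CC1G_20193 on chromosome 10 (0.80 and 0.55), CC1G_20009 on chromosome 1 (0.70 and 0.63) and CC1G_20201 on chromosome 12 (0.62 and 0.44). The 2 sites that were not called lay at CC1G_20017 on chromosome 2, with 4.41 and 4.15 CPM in IP against 2.80 and 3.64 in input in the primary table, and at CC1G_20157 on chromosome 7. The columns overlapped at CC1G_20157, with 2.00 and 2.38 CPM in IP against 2.19 and 1.32 in input.

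At the highest windows of the 13 sites, input in the multi-mapped table over input in the primary table lay between -0.16 and 0.39 on the log2 scale, against a median of -0.01 over all isolated sites and -0.10 over all windows. This did not hold for all flanks: the second window to the left of the highest window at CC1G_20011 held 5 and 8 input counts in the primary table and 386 and 392 in the multi-mapped table. The 11 tRNA pseudogenes on chromosomes were not touched by an isolated site, while runs over 3 windows touched 3 of them.

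**Figure D4:**
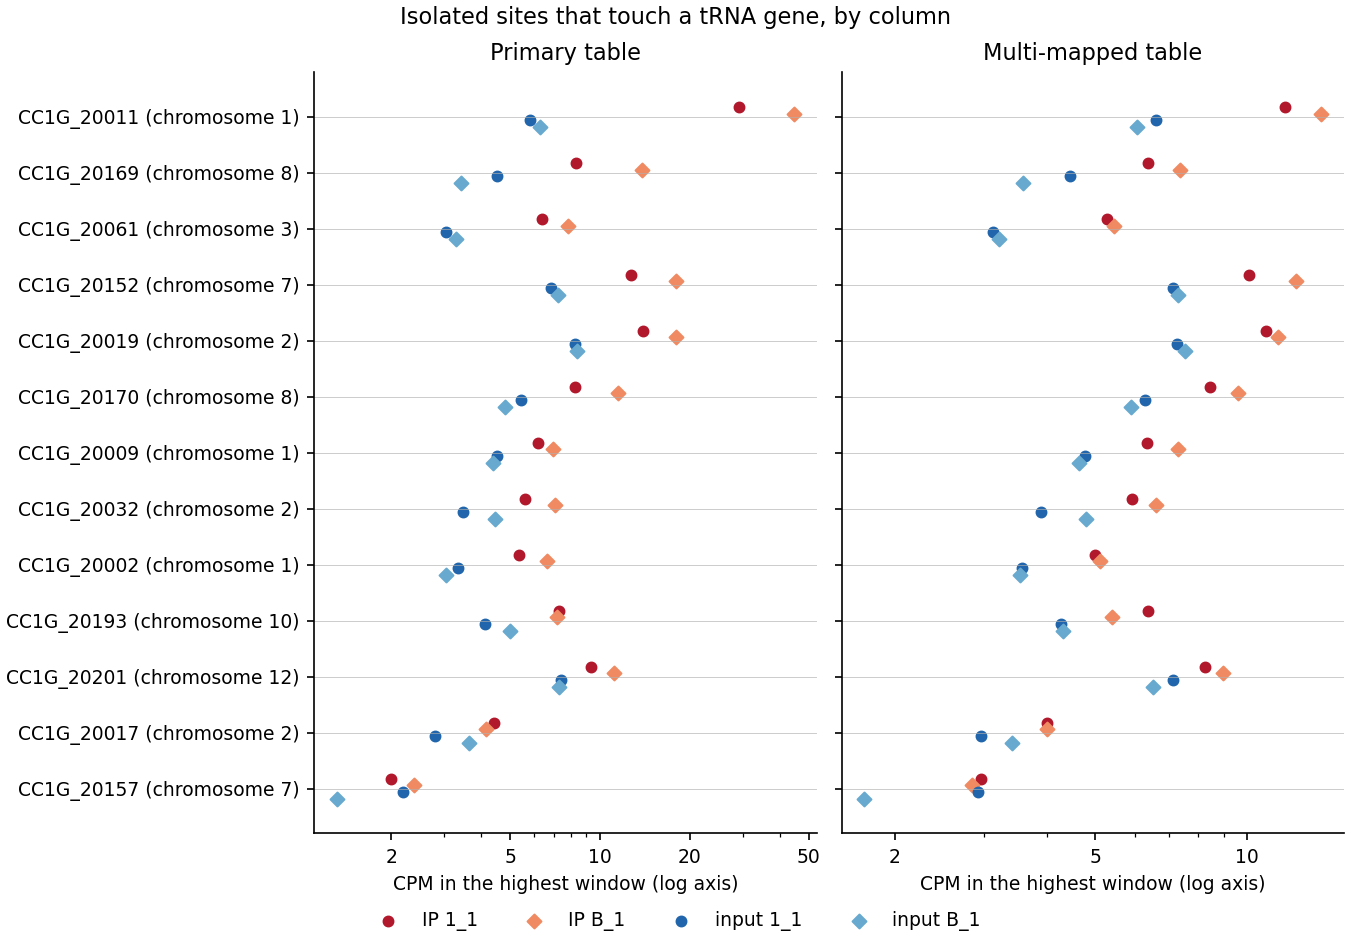
Level (CPM, log axis) in the highest window of the 13 isolated sites that touch a tRNA gene, by column, in the primary (left) and multi-mapped (right) tables, ordered by rank. Red and orange points are the IP columns, dark and light blue points the inputs. At 12 sites both IP points lie right of both input points in each table, beside 12.3% of all windows. CC1G_20157 is the exception. Nothing is read from this count, since the same contrast chose the sites.

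Near the ends of chromosomes, 25 sites (5.66%, exact 95% interval 3.69 to 8.24%) lay within 50 kb, against 6.57% of short runs with neighbours, 8.58% of runs over 3 windows and 3.64% of all windows. Within 20 kb there were 13 sites (2.94%), against 4.99%, 6.04% and 1.46% for the same 3 sets. Of the sites within 50 kb, the 3 ranked highest lay on chromosome 7 at 11701 to 12600, touching CC1G_10170 (33.9 and 44.7 CPM in IP against 11.6 and 10.8 in input, primary table), on chromosome 11 at 18901 to 19500, touching CC1G_12030 (10.2 and 12.7 against 4.85 and 4.89), and at the very start of chromosome 7, in the first 900 bp, touching CC1G_13484 (15.4 and 24.2 against 5.69 and 6.15). Their E in the primary table was 1.96, 1.36 and 1.88. The site with the highest counts in the primary table was the window at 301 to 600 on chromosome 6, with 502 and 530 CPM in IP against 411 and 442 in input in the primary table, and 27.3 and 32.4 against 23.6 and 24.1 in the multi-mapped table (E of 0.43 in both). This was high coverage in both groups with a small difference between them.

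The 2 IP columns did not contribute equally. IP B_1 exceeded IP 1_1 in CPM at 390 sites (84.1%) in the primary table and at 393 (84.7%) in the multi-mapped table, against 45.2% and 37.4% of all windows. The median log2 of IP B_1 over IP 1_1 was 0.27 and 0.14 at the sites in the primary and multi-mapped tables, against -0.02 and -0.05 over all windows. With IP B_1 alone set against the inputs, E was at least 0.4 at 446 sites in the primary table and at 454 in the multi-mapped table. With IP 1_1 alone it was at 388 and at 252. Each IP column alone reached the threshold in both tables at 220 sites (47.4%), against 2.67% of all windows. Short runs with neighbours leaned to IP B_1 too, at 70.2% in the primary table and 85.3% in the other. Which biological replicate each tag stands for, or how many libraries were joined in each column, is not stated, so the replicate and the column cannot be told apart.

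The site where E was highest in the primary table was among the 3 where the IP columns differed most in that table, with log2 differences of IP B_1 over IP 1_1 of 0.80, 0.84 and 0.82 in the order given here. On chromosome 10 at 963001 to 963900, 627 bp from CC1G_08746, IP held 64.6 and 112 CPM against 3.94 and 4.17 CPM in input (88.5 ± 33.8 against 4.05 ± 0.162; SD, n = 2 each; E of 4.57). In the multi-mapped table the same window held 9.32 and 10.8 CPM in IP against 5.25 and 5.58 in input, an E of 0.98. The other such sites were a run on chromosome 4 at 138601 to 139200, 571 bp from CC1G_02579, with 8.99 and 16.1 CPM in IP against 1.3 and 1.57 in input in the primary table, and a window on chromosome 7 at 59401 to 59700 in CC1G_10151, with 7.76 and 13.7 against 4.63 and 5.30. At all 3, even the lower IP column was above both inputs in the primary table, beside 14.4% of all windows. In the multi-mapped table the same log2 differences were 0.20, 0.32 and 0.05, so the IP columns of the chromosome 7 window, at 6.76 and 7.00 CPM, were almost equal there.

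E was higher in the primary than in the multi-mapped table at 424 of 464 sites (91.4%), against 53.8% of all windows. Across the sites the values of the 2 tables had a Pearson r of 0.755 and a Spearman rho of 0.691. This is a description over sites whose values come from the same libraries. Window counts in the multi-mapped table ended at 1071, while the primary table reached 162928, and the primary count of IP 1_1 was above 1071 at 212 sites. The part of this ceiling in the lower E of the multi-mapped table was not tested. The 40 sites with a higher E in the multi-mapped table were mostly weak, with a median E of 0.52 there and 0.47 in the primary table, and 32 of them were single windows. The most unequal of them by E, chosen after their values were seen, included a run on chromosome 3 at 1748401 to 1749300. It held 15.3 and 19.6 CPM in IP against 8.87 and 8.95 in input in the multi-mapped table (E of 1.07), and 1.46 and 1.82 against 1.28 and 0.994 in the primary table (E of 0.65).

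**Figure D5:**
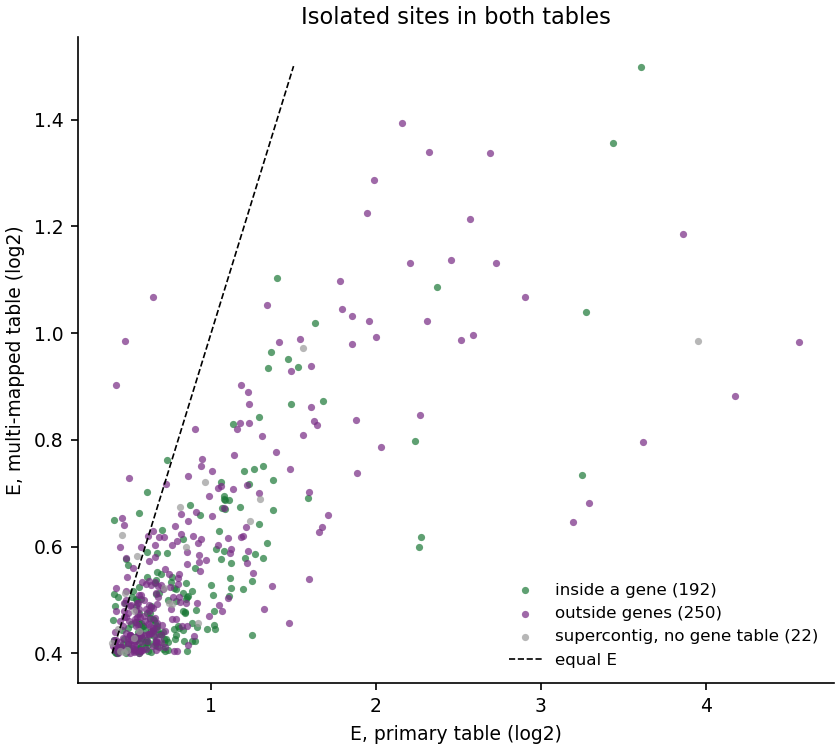
E of each isolated site in the primary table (horizontal) against the multi-mapped table (vertical), both log2, coloured by whether the midpoint of its highest window is inside a gene (192), outside genes (250) or on a supercontig (22). The dashed line marks equal E. Most points lie right of it, with values up to 4.57 in the primary table and up to 1.5 in the multi-mapped table.

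Input in the multi-mapped table was at least 2-fold that in the primary table, both in CPM, at 57 sites (12.3%), against 36.3% of short runs with neighbours, 31.2% of runs over 3 windows and 6.09% of all windows. Among sites outside genes the share was 16.8%, and among those inside genes 5.73%. The 12 sites with under 20 summed input counts in the primary table were an extreme of this kind. They had between 0 and 46 counts in IP 1_1 and between 1 and 23 in IP B_1. The inputs there held at most 6 and 8. None was called there, beside 8.76% of all windows tested. The sites that could not be tested there, with under 10 counts in total, were among these 12. In the multi-mapped table they had between 337 and 797 counts in IP 1_1 and between 335 and 781 in IP B_1. The inputs there held between 264 and 795 and between 278 and 752. Of the 12 sites, 7 were called there, beside 7.00% of all windows. The same contrast chose the sites, so nothing is read from these calls.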

How the data were processed

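DNA of oidia was sequenced after anti-CMS immunoprecipitation and as input. Tools named in the submitters' processing notes are Bowtie 0.12.7, Bismark 0.6.4 and edgeR, with no role. No label or header gives the genome build, read filters or any merging of technical replicates. Both deposited tables hold window counts, per the file headers, and 8 further columns with values per sample were not used. The deposited log2 fold changes (input over IP) and adjusted p-values, per the file headers, served only to count the authors' calls. Columns were assigned to IP or input by their headers; those of IP in the multi-mapped table do not name IP and were assigned because they lack the word input.

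CPM were counts over column totals. All windows with at least 10 counts were tested with edgeR 4.0.16 (R 4.3.3; TMM scaling, quasi-likelihood test, Benjamini-Hochberg adjustment), with DESeq2 1.42.0 as an alternative. Other steps used Python 3.11.15 with numpy 2.4.6, pandas 2.3.3, scipy 1.17.1 and matplotlib 3.10.9. The window test and the search for sites were both tested on simulated data. The chi-square per degree of freedom between columns was 9.69 for IP and 1.89 for input in the primary table, and 1.50 and 0.916 in the multi-mapped table. The 2 inputs of the multi-mapped table thus differed by less than the sampling noise; they were kept as 2 because they differed by more in the primary table. Intervals are exact Clopper-Pearson intervals over counts of sites, windows or genes. They cover counting error only, since neighbouring sites and windows are not independent of each other. Reads may also be PCR copies.

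As the window tables name no build, their match to the 13657 genes of the CC3 table was settled from the data: on 13 of 13 chromosomes the correlation of log2 input with gene cover was highest at no shift (r between 0.123 and 0.290, against at most 0.161 beyond 10 windows). Products, strand and sequence were not analysed here. Named sites are the 12 ranked highest by the lower of their 2 E values, the next 3 inside and 3 outside genes, those at tRNA genes, those nearest the threshold, the 3 where the IP columns differ most and the 3 highest within 50 kb of a chromosome end. The members, lists and rules were chosen with earlier results of these data known.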

Additional observations from a re-analysis of the deposited data

How the results depend on the processing

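The number of sites was 464, and 739 with an isolation of 5 windows, 706 with the primary table alone and 266 with single windows only. The share outside genes was 56.6%, against 50.2% and 68.2% at thresholds of 0.3 and 0.5, 50.9% with the primary table alone, 49.2% for single windows and 37.1% where no base of the run could lie in a gene; leaving out 1 column at a time gave 51.9 to 63.3%, highest without IP B_1. It was above the 34.7% of all windows under each setting that kept the midpoint rule. The share near chromosome ends was 2.94% within 20 kb and 12% within 100 kb, the latter with no share of all windows beside it. Within 50 kb it ran from 3.88%, at a threshold of 0.3, to 7.26%, with an isolation of 20 windows. The lowest of these was near the share of all windows given above. With TMM factors, both IP columns lay above both inputs at 98.7% of sites in the primary table. With column totals it was 97.4%, beside 14.4% of all windows. No share of all windows is given for TMM factors. Since the same contrast chose the sites, nothing is read from either share. In the multi-mapped table DESeq2 called 131 sites, all of the 131 to which it gave an adjusted p. Among all windows it gave an adjusted p to only 17712 and called 6788 of these (38.3%). The same contrast chose the sites, so nothing is read from the 131. With all columns edgeR called 418 sites, beside 7.00% of all windows. Leaving out 1 column gave 277 (without input B_1, beside 2.80% of all windows) to 429 calls (without IP 1_1, beside 12.7%). The lone column left in a group is assumed to vary like the other group's 2. Same-tagged columns had deviations correlated at 0.18 and 0.06 in the 2 tables, which with 2 tags does not show pairing; with the tag as a replicate block 424 sites were called in the primary table and 401 in the multi-mapped table, against 374 and 418; all windows called moved alongside, at 12.4% and 6.59% with the block against 8.76% and 7.00%. Depth was low at 11 sites with under 50 summed IP counts in the primary table. The planned share at a gene start and sequence features need strand and sequence and were not run.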

Other observations

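On supercontigs, where no genes were placed, 22 isolated sites lay on 19 sequences. The one ranked highest, on supercont3.31 at 3001 to 3600, held 25 and 40.9 CPM in IP against 2.11 and 2.43 in input in the primary table (E of 3.96), and 5.72 and 7.05 against 3.51 and 3.33 in the multi-mapped table (E of 0.99). Supercont3.48 carried the next ones, at 4501 to 5400 (E of 1.56 and 0.97 in the primary and multi-mapped tables) and at 901 to 1500 (0.96 and 0.72). Of the 22, 16 were called higher in both tables, beside 77.6% of all isolated sites and 5.63% of all windows, and 20 had fewer than 10 windows of sequence on a side.

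Among sites outside genes, 19 lay more than 2000 bp from the nearest gene. Their median E was 0.76 and 0.49 in the primary and multi-mapped tables, with highest values of 2.90 and 1.23, and 13 of the 19 were called in both tables, beside the same 2 shares.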
